A study of Mus musculus with 6 samples.

Results

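Cytosolic ribosomal protein genes were followed through PU.1-sorted nuclei of mouse hippocampus. PU.1 is a transcription factor of the myeloid lineage, so the gate takes microglia and related macrophages. Members were chosen by gene symbol alone, as Rpl or Rps followed by a number with an optional a, x, y or l and digit, together with Rpsa, Rplp0, Rplp1 and Rplp2. The rule found 83 of 31053 annotated genes, 32 for the small and 51 for the large ribosomal subunit. Ribosomal genes with other names, such as Fau and Rack1, fall outside it and are given separately.

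The 6 libraries each hold nuclei pooled from 3 mice aged 9.5 months, and each genotype has 1 library. Their labels combine 3 backgrounds, E4, P301S/EKO and P301S/E4, each with TREM2+ and with TREM2-, where P301S is a mutation of the microtubule-associated protein tau and E4 an allele of apolipoprotein E. The labels do not name the promoter of a tau transgene or describe the EKO and TREM2 alleles further. E4 is shared by the E4 and P301S/E4 groups, and P301S by the P301S/EKO and P301S/E4 groups. The comparisons ask how tau (P301S/E4 against E4), APOE (P301S/E4 against P301S/EKO) and TREM2 (TREM2- against TREM2+) bear on these genes. P301S/EKO and E4 differ in both tau and APOE.

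Each ribosomal protein is made in step with the others and with ribosomal RNA, since a ribosome takes up a single copy of nearly every one. Many of their mRNAs start with a C followed by a run of pyrimidines (C or T), the terminal oligopyrimidine motif, through which growth signalling by mTORC1 and the RNA-binding protein LARP1 sets their translation. Most of these mRNAs lie in the cytoplasm, so counts from nuclei read the nuclear part of the pool, with what cytoplasmic RNA stays on the nuclei.

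The start sites are shown first, because the pyrimidine run is a feature the symbol rule did not use. RefSeq promoter windows for GRCm38.p6, from 250 bases before to 50 bases after a gene's start, held 63 of the 83 members. A run of C followed by at least 4 pyrimidines, on the gene's strand and within 10 bases either side of the start, was found in at least 1 window of 39 of those 63 members (61.9%) and of 34.4% of all 27025 genes. The windows below are the 50 bases around the start, 5′ to 3′ on the gene's strand, with the match in capitals. The match begins at the C nearest the start that at least 4 pyrimidines follow, so pyrimidines joined to it upstream stay in lower case. In Rpl10a the match begins at -7 and lies wholly before the annotated start, outside the mRNA annotated from it. Rpl10a and Rps18 are shown because they rose with tau, Rps9 because it fell in deep nuclei, Rps21 because it had the largest APOE difference below 0, and Rps6 because it is the classic target of growth signalling.
Rpl10a, chr17:28328436-28328485, plus strand: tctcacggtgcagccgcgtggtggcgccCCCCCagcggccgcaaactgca
Rps18, chr17:33955651-33955700, minus strand: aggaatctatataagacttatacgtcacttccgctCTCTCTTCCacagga
Rps9, chr7:3704006-3704055, plus strand: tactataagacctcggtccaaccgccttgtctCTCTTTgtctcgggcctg
Rps21, chr2:180257344-180257393, plus strand: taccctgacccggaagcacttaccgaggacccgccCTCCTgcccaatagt
Rps6, chr4:86857353-86857402, minus strand: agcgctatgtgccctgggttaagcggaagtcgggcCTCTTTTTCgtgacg
Rpl10a and Rps21 each have another annotated start whose window has no such run. Other promoter motifs were searched as exact letters on both strands of the whole window. CCGGAAG, the core of ETS-type sites, was in a window of 41.3% of the members and 9.93% of all genes. AAGATGGC, the core of YY1 sites, was in 9.52% and 3.19%, and the GC box GGGCGG in 61.9% and 38.2%. TATAAA was in 11.1% and 15.7%, and the E-box CACGTG in 9.52% and 8.09%. A match is a description of the letters, not a site.

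Nuclei with 200 or more detected genes and 5% or fewer mitochondrial (mt-) unique molecular identifiers (UMIs) numbered 31738 of 33335. They held 28636665 UMIs, between 3172124 and 8376816 a library, and the median nucleus held 569 to 915 UMIs. Core microglia markers summed to 19062 to 28072 CPM, UMIs scaled to a common library total, per library. Markers of other cells were present at lower sums, 144 to 1840 CPM for neurons, 388 to 815 for astrocytes, 198 to 269 for oligodendrocytes and 378 to 1012 for border macrophages. Lymphocyte and granulocyte markers summed to 0 to 5.61 CPM, with Cd3e, Cd3g and Ly6g at 0. Trem2 read 348 to 580 CPM in TREM2- and 917 to 1114 CPM in TREM2+ libraries, and Apoe read 9.14 to 14.2 CPM in P301S/EKO and 187 to 1184 CPM in the others. Pairs of libraries shared 5 to 13 nucleus barcodes.

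Ribosomal protein genes gave 340684 UMIs, 1.19% of the total. Their share was 1.04% in E4/TREM2+ and 1.10% in E4/TREM2-. It was 1.25% in P301S/EKO/TREM2+, 1.41% in P301S/EKO/TREM2-, 1.26% in P301S/E4/TREM2+ and 1.13% in P301S/E4/TREM2-. Both E4 libraries lay below the 4 P301S libraries over these nuclei. That separation depended on the filter. Over all deposited nuclei E4/TREM2- (1.28%) was above P301S/E4/TREM2- (1.18%), and over nuclei with 500 or more genes E4/TREM2+ (1.13%) was above P301S/E4/TREM2- (1.09%). The order among the P301S libraries did not follow TREM2 or APOE alone. Wilson 95% intervals, which cover counting error only, were 1.03 to 1.05% for E4/TREM2+ and 1.24 to 1.27% for P301S/EKO/TREM2+. With 1 library a genotype, no test was made of the share, and in a library's sum more nuclei of a type and more RNA per nucleus cannot be told apart.

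**Figure D1:**
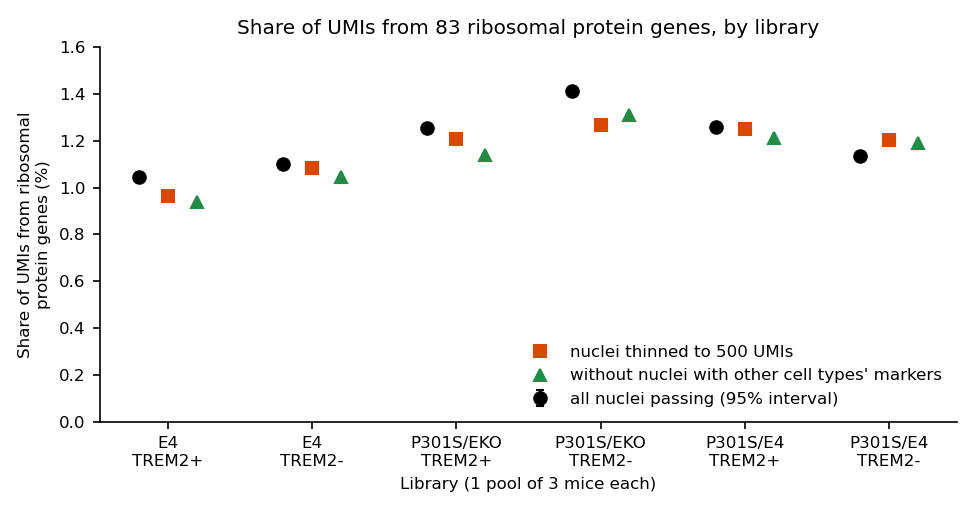
Percent of all UMIs from the 83 ribosomal protein genes in each of the 6 libraries, over all passing nuclei, after thinning each nucleus to 500 UMIs, and without nuclei holding markers of other cell types; the lines are Wilson 95% intervals, mostly smaller than the points. The E4/TREM2+ library is lowest at 1.04%, and P301S/EKO/TREM2- is highest at 1.41%.

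Depth and other cells moved with these shares. Thinned to 500 UMIs a nucleus, the shares in the same order of libraries were 0.963, 1.08, 1.21, 1.26, 1.25 and 1.20%, with the E4 libraries lowest. Nuclei too shallow to be thinned numbered 1827 in P301S/EKO/TREM2-, and among the E4 libraries 1488 with TREM2+ and 417 with TREM2-; the others had 0. Without nuclei holding 2 or more UMIs of neuron, astrocyte, oligodendrocyte or border macrophage markers, the shares were 0.937, 1.05, 1.14, 1.31, 1.21 and 1.19%. At the thinned depth a nucleus held a median of 4 to 6 ribosomal protein UMIs, and 0.824 to 1.42% of nuclei held none. The mitochondrial share ran from 0.468% in P301S/E4/TREM2+ to 1.19% in E4/TREM2-, and its part in these differences was not tested.

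Small-subunit genes gave 41.5 to 42.0% of the ribosomal protein UMIs in every library. Of the 83 members, 80 had enough UMIs to be tested, from 260 for Rps27l to 12994 for Rpl6, with a median of 3783.5. The 10 members of most UMIs held 26.6% of the ribosomal protein UMIs. Rpl10l had 0 UMIs, which allows up to 3 in all the nuclei, Rpl3l had 1 and Rpl39l had 5. These are the tissue-restricted copies of Rpl10, Rpl3 and Rpl39, known from testis and striated muscle.

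Single members varied little from library to library. The highest library's CPM over the lowest had a median of 1.43, from 1.14 for Rps29 to 2.04 for Rpl10a, the only member past 2. P301S/EKO/TREM2- was the highest library for 62 of the 80 tested members, P301S/EKO/TREM2+ for 8, P301S/E4/TREM2+ for 7 and P301S/E4/TREM2- for 3. The lowest was E4/TREM2+ for 43, P301S/E4/TREM2- for 20 and E4/TREM2- for 13. No member was highest in an E4 library. In both P301S/EKO libraries 69 of 80 members (86.3%) lay above both E4 libraries and 0 below, against 27.4% of the 12515 tested genes above and 17.4% below. These groups differ in 2 factors, and no test was made of that pair.

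**Figure D2:**
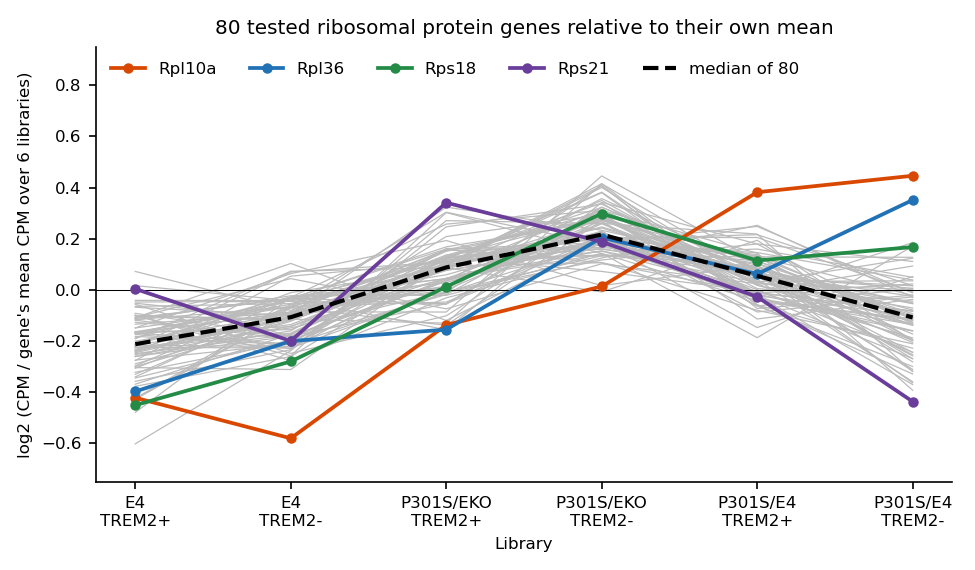
Log2 ratio of each of the 80 tested members' CPM to its own mean over the 6 libraries, one grey line a member, 4 members in colour and the median dashed, with libraries on the x axis. Over nuclei of all depths, P301S/EKO/TREM2- holds the highest value of 62 of 80 members, and Rpl10a has its highest values in the P301S/E4 libraries.

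Tau was read first, as P301S/E4 minus E4 over both TREM2 genotypes. Rpl10a, Rpl36 and Rps18 rose and no member fell, at an adjusted p of 0.05 or less in edgeR's quasi-likelihood test (Benjamini-Hochberg over 12515 genes). The background is that 7.8% of all genes tested rose and 9.24% fell, 17% in all, so 3 of 80 members is a smaller share than over all genes. The spread behind each p starts from the departure of 6 libraries from additive effects, with 2 residual degrees of freedom. The test moderates it with the spread of other genes, at 8.60 prior degrees of freedom. Neither is the spread between mice.

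Rpl10a, a large-subunit protein of the stalk beside the tRNA exit site, had the largest change. The gene (ENSMUSG00000037805, chr17:28328471-28331033, plus strand, GRCm38) read 205 and 184 CPM in the E4 background, 250 and 277 CPM in the P301S/EKO background, and 358 and 374 CPM in the P301S/E4 background, with the TREM2+ library first. The 3 backgrounds did not overlap, with E4 lowest, P301S/EKO between and P301S/E4 highest. The counts behind them ran from 730 UMIs in E4/TREM2+ to 3137 in P301S/E4/TREM2-. On the log2 scale the tau difference was 0.87 (SE 0.13, adjusted p = 0.000906).

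Rpl36, another large-subunit protein (ENSMUSG00000057863, chr17:56613416-56614243, plus strand), read 109 and 125 CPM in the E4 libraries, 129 and 166 CPM in the P301S/EKO libraries and 150 and 183 CPM in the P301S/E4 libraries, each TREM2+ first. In each background the TREM2- library was the higher, and the P301S/EKO and P301S/E4 groups overlapped. The tau difference was 0.46 (SE 0.13, adjusted p = 0.0305). Rps18, a small-subunit protein of the head (ENSMUSG00000008668, chr17:33951999-33956001, minus strand), read 99.8 and 112 CPM in the E4 libraries, 138 and 168 CPM in P301S/EKO, and 148 and 153 CPM in P301S/E4. Both E4 libraries were below the 4 P301S libraries. The tau difference was 0.46 (SE 0.13, adjusted p = 0.0392). Leaving out 1 library changed these calls. Without E4/TREM2+ or without E4/TREM2-, only Rpl10a rose (4.66 and 4.65% of all genes rose). Without P301S/E4/TREM2- 14 members rose, against 7.31% of all genes.

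**Figure D3:**
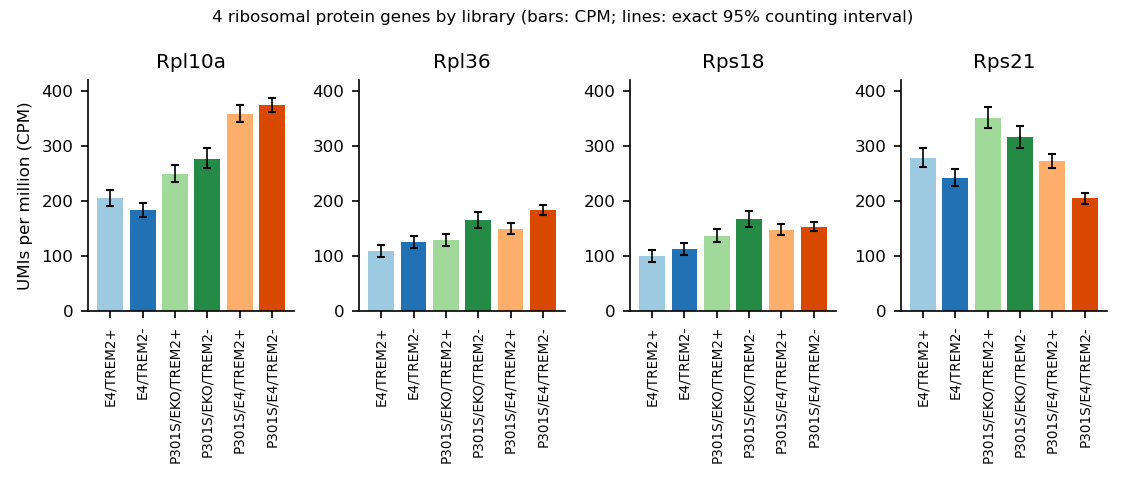
CPM (bars) of Rpl10a, Rpl36, Rps18 and Rps21 in each of the 6 libraries, with exact 95% Poisson intervals of the counts as lines. Rpl10a reads 184 and 205 CPM in the E4 libraries and 358 and 374 CPM in the P301S/E4 libraries; Rps21 is lowest, at 205 CPM, in P301S/E4/TREM2-.

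Over nuclei of all depths, the other members lay close to 0 in the tau contrast. The median over the 80 tested members was 0.08 on the log2 scale, against 0.00 over all genes, with 55 members above 0. The small subunit had a median of 0.09 with 25 of 32 above 0, and the large subunit 0.06 with 30 of 48. Rpl23 (0.39, adjusted p = 0.0949) and Rps20 (0.36, adjusted p = 0.107) came next by p in the same edgeR test and were not called. Rplp0 (0.40, adjusted p = 0.108) was not called either. In 38 of 80 members (47.5%) both P301S/E4 libraries lay above both E4 libraries, against 31% of all genes, and in 0 members both lay below, against 24.9%.

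All 3 members that rose with tau lie on chromosome 17, a pattern noticed after their values were seen. Chromosome 17 holds 8 members, Rps2, Rpl3l, Rps10, Rpl10a, Rps28, Rps18, Rpl7l1 and Rpl36, of which 7 were tested, with a median tau difference of 0.33. The 73 tested members on the other chromosomes had a median of 0.08, and none was called. Over all 634 tested genes of chromosome 17, 58 (9.15%) rose with tau and 14.5% were called in either direction. Among tested genes within 1 Mb of Rpl10a, 4 of 29 rose and 1 fell. Within 1 Mb of Rps18, in the region of the major histocompatibility complex, 12 of 69 rose and 3 fell, with the class I gene H2-K1 at 1.71. Within 1 Mb of Rpl36, 3 of 42 rose and 2 fell, with complement C3 at 5.57.

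The tau difference is given for each TREM2 genotype, with no test between them. For P301S/E4/TREM2+ over E4/TREM2+, the median member log2 ratio was 0.26 (all genes 0.01), and 73 of the 79 members with 100 or more UMIs in the pair were above 0. In 53 members the exact counting interval lay above 0 and in 0 below. Intervals, here and below, were made for members only, so no share over all genes stands beside these counts. Rpl10a (0.80), Rplp0 (0.65) and Rpl23 (0.63) were past 1.5-fold upward, against 10.4% of all genes, and 0 downward, against 8.17%. For P301S/E4/TREM2- over E4/TREM2- the median was 0.01 (all genes 0.14), 44 of 79 members were above 0, and the intervals of 19 lay above and 15 below 0. There Rpl10a alone was past 1.5-fold upward, at 1.03, against 17.2% of all genes, and 0 downward, against 9.56%. Single pairs of libraries have no replicate check, so these ratios compare libraries. Nuclei of 1000 or more UMIs numbered 772 of 4828 in E4/TREM2- and 2899 of 7004 in P301S/E4/TREM2-. The part of depth in these ratios was not tested.

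APOE was read as P301S/E4 minus P301S/EKO, a contrast that shares the P301S/E4 libraries with the tau contrast. No member was called by edgeR's quasi-likelihood test or by DESeq2, against 3.67% of all genes by edgeR (1.8% up and 1.87% down). Before adjustment, 8 members (10%) and 18.3% of all genes reached a p of 0.05. Most members lay below 0, 72 of 80, with a median of -0.16, against 0.01 over all genes. That was over nuclei of all depths, and it changed with thinning and with the libraries entered, as given below. The small subunit had a median of -0.16 and the large subunit -0.19. In 42 of 80 members (52.5%) both P301S/E4 libraries lay below both P301S/EKO libraries, against 25% of all genes. In 1 member, Rpl10a, both lay above, against 21.9% of all genes. In the same contrast 13 of 14 tested activation markers and 4 of 8 border macrophage markers rose, and 4 of 14 core microglia and 3 of 8 tested neuron markers fell. Astrocyte markers had a median of -0.53, with 1 of 6 above 0 and 0 called. The part of these in the ribosomal protein differences was not tested.

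Rpl10a (0.49, SE 0.12, adjusted p = 0.0611) and Rps21 (-0.48, SE 0.13, adjusted p = 0.0709) had the lowest adjusted p in the APOE contrast. Rps21, a small-subunit protein (ENSMUSG00000039001, chr2:180257377-180258445, plus strand), read 279 and 242 CPM in the E4 libraries, 352 and 317 CPM in P301S/EKO and 273 and 205 CPM in P301S/E4, TREM2+ first. In each background the TREM2- library was the lower, and both P301S/E4 values were below both P301S/EKO values. Rplp1, an acidic protein of the stalk that recruits elongation factors, read 360 and 447 CPM in P301S/EKO and 324 and 268 CPM in P301S/E4 (-0.43, adjusted p = 0.168). Rps15 (-0.39) and Rpl26 (-0.43) were also among the 5 of lowest p, and neither was called.

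The APOE median depended on the libraries entered. Without P301S/E4/TREM2- the member median was 0.00 with 42 members above 0, and without P301S/E4/TREM2+ it was -0.33 with 13 members fallen, against 5.83% of all genes fallen. Without P301S/EKO/TREM2+ 2 members fell (3.2% of all genes), and without P301S/EKO/TREM2- 0 fell (1.06%). In the TREM2- pair, P301S/E4/TREM2- over P301S/EKO/TREM2-, 76 of 79 members were below 0 with a median of -0.33 (all genes 0.09), and counting intervals of 65 lay below 0. Past 1.5-fold downward in that pair were 8 members, among them Rpl23a (-0.78), Rpl26 (-0.75), Rplp1 (-0.74), Rps21 (-0.63) and Rpl34 (-0.60), against 7.14% of all genes, and 0 members upward, against 12.1%. In the TREM2+ pair the median was -0.04 with 49 of 80 members below 0, and 11 intervals, made for members only, lay on each side of 0. No member was past 1.5-fold there, against 4.66% of all genes downward and 4.7% upward. Median UMIs per nucleus were 915 in P301S/E4/TREM2- and 569 in P301S/EKO/TREM2-, and after thinning the shares of these libraries were 1.20 and 1.26%, in place of 1.13 and 1.41%. The thinned fit gave an APOE member median of -0.04 with 32 of 80 above 0.

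**Figure D4:**
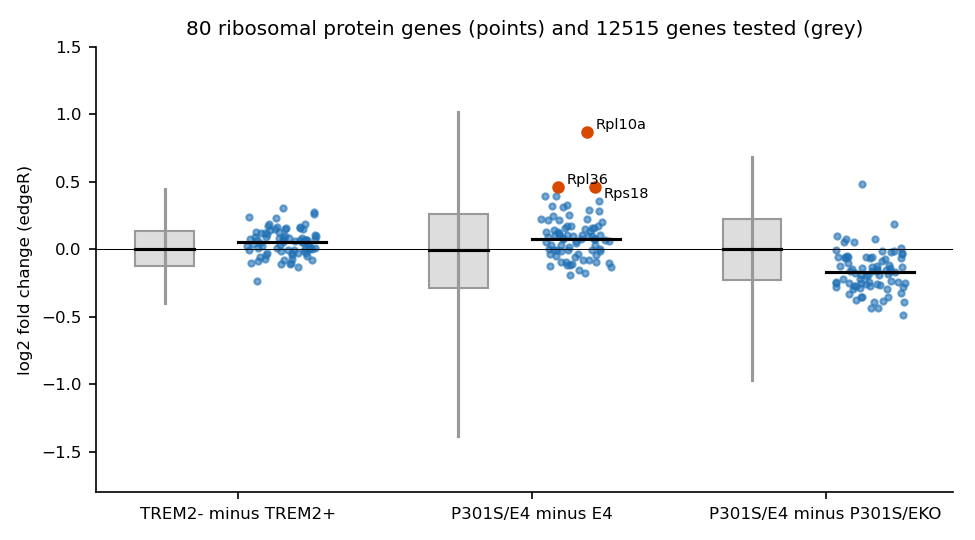
Log2 difference of each tested member in the TREM2, tau and APOE contrasts, with called members in orange; the box spans the 25th to 75th and the whisker the 5th to 95th percentile of all 12515 tested genes. Most members lie inside the box of all genes. Over nuclei of all depths, Rpl10a, Rpl36 and Rps18 are called in the tau contrast and 72 of 80 lie below 0 in the APOE contrast.

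TREM2 was read as TREM2- minus TREM2+ over the 3 backgrounds. No member was called by edgeR's quasi-likelihood test or by DESeq2, against 0.112% of all genes by edgeR (0.032% up and 0.0799% down). Before adjustment, 6.22% of all genes and 2 of 80 members (2.5%) reached a p of 0.05, Rpl36 (0.31, SE 0.10, adjusted p = 0.585) and Rps12 (0.27, adjusted p = 0.776). Rps21 (-0.23), Rpl7l1 (0.26) and Rps18 (0.19) followed. The median was 0.06 with 56 of 80 members above 0, against 0.01 over all genes.

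The single TREM2 pairs had medians of opposite sign. TREM2- over TREM2+ gave a median of 0.10 with 57 of 79 members above 0 in E4, and 0.16 with 70 of 79 above 0 in P301S/EKO. In P301S/E4 it gave -0.16 with 66 of 80 below 0. Over all genes the medians were -0.05, -0.05 and 0.06. Counting intervals, made for members only, lay above 0 for 17 and below for 4 members in E4. They lay above for 34 and below for 1 in P301S/EKO, and above for 3 and below for 46 in P301S/E4. No member was past 1.5-fold in any of these pairs. Over all genes 3.06% were past it upward and 2.57% downward in E4, 1.76 and 3.61% in P301S/EKO, and 5.28 and 4.71% in P301S/E4. The shares of UMIs, TREM2+ against TREM2-, were 1.26 against 1.13% in P301S/E4, 1.25 against 1.20% after thinning and 1.21 against 1.19% without nuclei of other cell types. In P301S/EKO they were 1.25 against 1.41%, 1.21 against 1.26% and 1.14 against 1.31%, and in E4 1.04 against 1.10%, 0.963 against 1.08% and 0.937 against 1.05%. The difference between backgrounds was not tested.

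Members with a described role are given in turn, with levels over nuclei of all depths. The order is E4, P301S/EKO and P301S/E4, and TREM2+ before TREM2- within each background. Rplp0, the base of the acidic stalk, read 59.6, 76.7, 107, 114, 93.5 and 91.4 CPM. Rplp2, its partner with Rplp1, read 111, 136, 140, 152, 130 and 110 CPM. Both had their highest value in P301S/EKO/TREM2-, and E4/TREM2+ was lowest for Rplp0.

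Rpl5 and Rpl11, which with 5S ribosomal RNA hold the p53 regulator MDM2 when assembly is disturbed, were both highest in P301S/EKO/TREM2- and lowest in E4/TREM2+. Rpl5 read 86.6, 91.1, 112, 130, 101 and 96.0 CPM, and Rpl11 read 112, 132, 141, 161, 135 and 116 CPM. Neither was called in the tau, APOE or TREM2 contrast. Rps19 and Rps14, whose human counterparts are known from inherited and acquired anaemias, had tau differences of 0.23 and 0.11, not called. Rps6, whose phosphorylation reports growth signalling, read 86.8, 94.9, 102, 114, 91.9 and 95.7 CPM, with a tau difference of 0.00. Rpsa, also known as the laminin receptor, read 157, 151, 188, 225, 179 and 161 CPM, and Rpl3, at the peptidyl transferase centre, read 109, 107, 123, 165, 118 and 122 CPM. Over nuclei of all depths, P301S/EKO/TREM2- was again the highest of the 6 for each of these 3.

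Paralogous members are given side by side. Rpl22 read 61.6, 70.5, 85.1, 90.2, 87.9 and 81.7 CPM and its copy Rpl22l1 read 90.8, 81.7, 96.3, 93.0, 81.7 and 74.6 CPM. Their tau differences were 0.31 and -0.19, neither called. Rps27 had a tau difference of 0.08 and Rps27l, a p53 target with 260 UMIs in all, 0.06. Rpl10, the last protein to join the large subunit, read 134, 149, 137, 155, 147 and 144 CPM, the second narrowest range of the 80. Rps29 was the narrowest at 316 to 360 CPM. Rpl39 and Rpl41, among the smallest proteins of the ribosome, had tau differences of 0.16 and 0.26, and Rps27a, made as a fusion with ubiquitin, 0.10. Rpl13a, named in interferon-driven silencing of mRNAs, had 0.02. Reads of near-identical processed pseudogenes may be split or dropped by the counting, which makes these levels uncertain for the whole family.

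Members were also read by features the symbol rule did not use. A small nucleolar RNA lies on the same strand inside 30 members. These hosts had a tau median of 0.10 and an APOE median of -0.15, and the 50 other tested members had 0.06 and -0.19. Members with the pyrimidine run within 10 bases either side of the start had a tau median of 0.07 and an APOE median of -0.16. Those whose window lacks it had 0.08 and -0.25. A protein-coding gene on the opposite strand overlaps 15 members.

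The wider translation machinery was read from fixed lists in the same fits. Of the ribosomal genes outside the symbol rule, Rack1 stood at 0.36 (adjusted p = 0.124) and Fau at 0.28 for tau, and neither was called with tau or APOE. Of 15 translation elongation and related genes, and of 15 tested genes of growth signalling to ribosomes, 0 were called in the tau, APOE or TREM2 contrast. Of 30 tested ribosome assembly genes 2 rose with tau, Gnl3 (0.71, adjusted p = 0.00316), a nucleolar GTPase, and Tsr1 (0.88, adjusted p = 0.0217), a factor of small-subunit maturation, and 0 fell. In the same contrast 14 of 14 tested activation markers rose, 7 of 14 core microglia markers fell, 5 of 8 tested neuron markers fell and 2 of 6 astrocyte markers rose. The part of these in the ribosomal protein differences was not tested.

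Lpl and Gpnmb mark activated microglia: lipoprotein lipase releases fatty acids, and Gpnmb is a membrane glycoprotein of lipid-laden phagocytes. Nuclei thinned to 500 UMIs were split by 1 or more UMI of each gene, and a nucleus without one may still express it. Lpl-positive nuclei numbered 52 to 729 in the 4 libraries with P301S, and 15 and 9 in the E4 libraries, which were left out. The ribosomal protein share in Lpl-positive against Lpl-negative nuclei was 1.20 against 1.21% and 1.28 against 1.26% in P301S/EKO, and 1.21 against 1.25% and 1.20 against 1.20% in P301S/E4, TREM2+ first. The shares lay within 0.1 percentage points of each other in each. None of 79 tested members was called by edgeR's quasi-likelihood test with library as a block or by DESeq2, against 0.548% of 9125 genes by edgeR (0.351% up and 0.197% down). Before adjustment, 6 members (7.59%) and 7.13% of all genes reached a p of 0.05. The member median was -0.10 (all genes -0.04).

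Rps27 (-0.46, adjusted p = 0.468) had the lowest p for Lpl. Rpl10a was higher in Lpl-positive nuclei in 4 of 4 libraries. Its levels in positive and negative nuclei were 372 and 258 CPM (TREM2+) and 385 and 264 CPM (TREM2-) in P301S/EKO, and 469 and 370 CPM (TREM2+) and 399 and 384 CPM (TREM2-) in P301S/E4. The positive nuclei held 72500 and 26000 UMIs of all genes in P301S/EKO, and 364500 and 150500 in P301S/E4, TREM2+ first. Few Rpl10a UMIs thus lie behind the P301S/EKO values, and the 2 classes of P301S/E4/TREM2- were nearly level. The Rpl10a difference was 0.24 on the log2 scale (adjusted p = 0.738) and was not called. Without nuclei holding an Lpl or Gpnmb UMI, the tau difference of Rpl10a was 0.84 (adjusted p = 0.00226), so it was present in nuclei where neither was detected.

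Gpnmb-positive nuclei numbered 385 in P301S/E4/TREM2+ and 473 in P301S/E4/TREM2-, against 0 in the E4 libraries and 10 and 2 in P301S/EKO. The ribosomal protein share was 1.17% in positive and 1.25% in negative nuclei of P301S/E4/TREM2+, and 1.02 and 1.22% in P301S/E4/TREM2-. Of 80 members 48 and 66 were lower in the positive nuclei of these libraries, in counts not made over all genes. None was called by edgeR's quasi-likelihood test or by DESeq2, against 2.7% of 10403 genes by edgeR (1.92% up and 0.779% down). Before adjustment, 8 members (10%) and 11.8% of all genes reached a p of 0.05. The member median was -0.16 with 60 below 0, and only 2 libraries entered the fit. Rpl27 (0.98), Rplp0 (-0.72), Rps21 (-0.47) and Rps25 (-0.72) had the lowest p. Rpl10a stood at 0.03.

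Depth was read by comparing nuclei of 1000 or more UMIs with shallower ones in each library. Over all nuclei 2 of 80 members fell in deep nuclei and 0 rose, against 3.98% of 11468 genes that fell and 6.5% that rose (edgeR's quasi-likelihood test, library as a block). Those were Rps9 (-0.25, SE 0.06, adjusted p = 0.00396) and Rpl10 (-0.21, adjusted p = 0.0344), each lower in deep nuclei in 6 of 6 libraries. Rps9 is a small-subunit protein at the mRNA entry and is at chr7:3703993-3706897 on the plus strand (ENSMUSG00000006333). Rpl10 is at chrX:74270812-74273135 on the plus strand (ENSMUSG00000008682). The member median was 0.01.

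That median hid libraries that went opposite ways, in counts made for members only. In deep nuclei 75 of 80 members were higher in E4/TREM2+, 39 in E4/TREM2-, 59 in P301S/EKO/TREM2+, 64 in P301S/EKO/TREM2-, 29 in P301S/E4/TREM2+ and 1 in P301S/E4/TREM2-. The share of UMIs in deep against shallow nuclei was 1.29 against 0.967% in E4/TREM2+, 1.65 against 1.37% in P301S/EKO/TREM2- and 1.04 against 1.29% in P301S/E4/TREM2-. The same step in depth thus went with a higher share in some libraries and a lower one in others. Without P301S/E4/TREM2- 9 members rose and 1 fell, against 7.14 and 3.68% of all genes. Without E4/TREM2+ 4 fell (3.63% of all genes), and without E4/TREM2-, P301S/EKO/TREM2+ or P301S/EKO/TREM2- 1 fell in each case (2.89 to 3.21% of all genes). With the boundary at 2000 UMIs 22 members rose and 0 fell, against 8.14 and 1.36% of all genes. At 750 UMIs 16 fell and 0 rose, against 5.99 and 6.69%.

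Markers of other cells moved with depth. In deep nuclei 6 of 8 tested neuron markers, 5 of 6 astrocyte and 2 of 5 tested oligodendrocyte markers rose, and 13 of 14 core microglia markers fell. Nuclei with 3 or more UMIs of oligodendrocyte markers had a ribosomal protein share of 2.11 to 6.77% over the 6 libraries, 22 to 47 nuclei each. Nuclei with as many astrocyte markers had 1.28 to 4.28%, against 1.00 to 1.33% for those with core microglia markers and 0.900 to 1.03% for those with border macrophage markers. Nuclei with as many neuron markers had 1.20 to 3.32% in the 4 libraries with 20 or more of them. A nucleus could count for more than 1 list. Core microglia markers were at 3 or more UMIs in 98.6 to 99.7% of nuclei, so that class is close to the whole library. The ribosomal protein share of nuclei with oligodendrocyte markers lay above that of this class in every library.

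Without nuclei holding 2 or more UMIs of other cells' markers, a choice made after these values were seen, the depth comparison changed. There 46 of 80 members fell in deep nuclei, 18 of the small and 28 of the large subunit, and 0 rose, against 4.86% of 10372 genes called, 2.43% in each direction. The median was -0.28 (all genes 0.00), and 79 of 80 members were below 0. In 6 of 6 libraries 42 members were lower in deep nuclei, a count not made over all genes. The shares in deep against shallow nuclei were 0.812 against 0.954% in E4/TREM2+, 0.939 against 1.07% in E4/TREM2-, 1.04 against 1.20% in P301S/EKO/TREM2+, 1.08 against 1.33% in P301S/EKO/TREM2-, 1.04 against 1.28% in P301S/E4/TREM2+ and 1.06 against 1.30% in P301S/E4/TREM2-. Every library now had the lower share in its deep nuclei. The removal itself depends on depth, since it left 235 of 461 deep and 3909 of 4627 shallow nuclei in E4/TREM2+.

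Rps29, a small zinc-binding protein of the small subunit, changed by -0.46 in that comparison (SE 0.06, adjusted p = 2.52e-10 in edgeR's quasi-likelihood test). Its levels in deep and shallow nuclei were 270 and 272 CPM (TREM2+) and 235 and 316 CPM (TREM2-) in E4, 256 and 340 CPM (TREM2+) and 252 and 333 CPM (TREM2-) in P301S/EKO, and 244 and 353 CPM (TREM2+) and 265 and 391 CPM (TREM2-) in P301S/E4. Only in E4/TREM2+ were both classes nearly level. The test pools spread over genes, so its p-values do not measure agreement among the 6 libraries alone. Rplp1 (-0.41, adjusted p = 2.34e-08) and Rps10 (-0.50) also fell, and Rpl22l1 was the only member above 0.

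**Figure D5:**
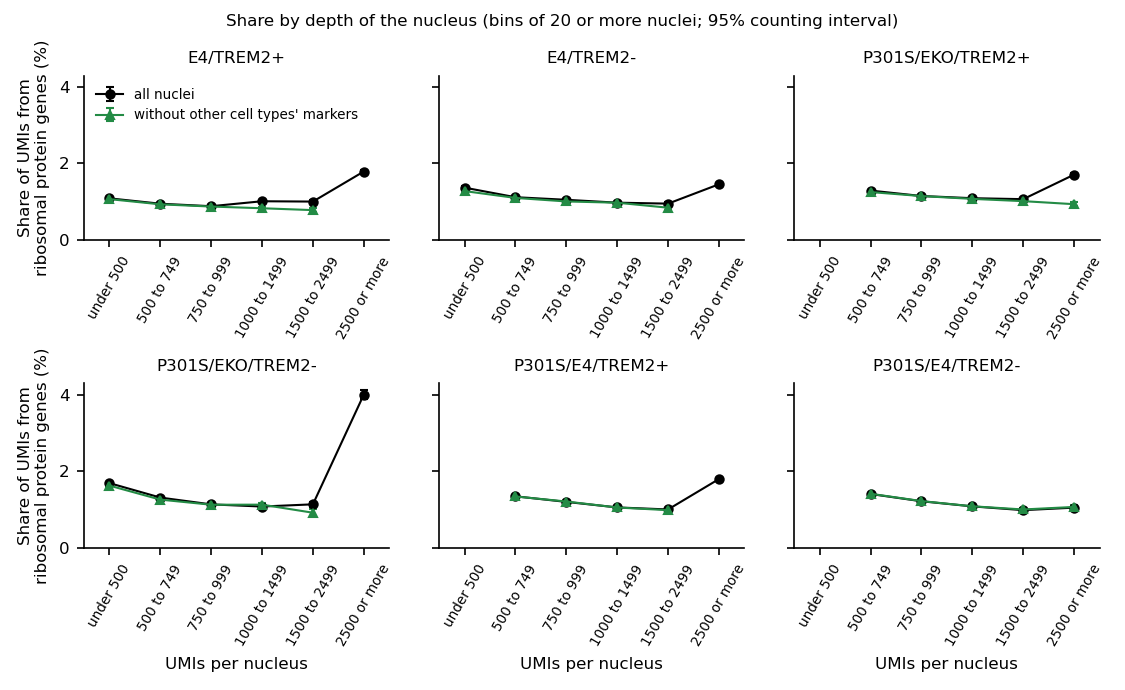
Percent of UMIs from ribosomal protein genes in bins of UMIs per nucleus, one panel per library, for all passing nuclei and for those without markers of other cell types; bins hold 20 or more nuclei and the lines are 95% counting intervals. The curves of the libraries part in the deepest bins among all nuclei; without the marker-bearing nuclei every library has a lower share at 1000 or more UMIs than below, as 0.812 against 0.954% in E4/TREM2+.

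The authors' deposited tables of differential expression, with tests made over nuclei, were read for the same genes. In the authors' deposited table of TERM against homeostatic nuclei, 57 of 80 members had a positive and 21 a negative log fold change, with a median of 0.12 against 0.34 over all 16056 genes. Members past an adjusted p of 0.05 in the authors' deposited table were Rpl10a (0.72, adjusted p = 1.06e-15), Rpl36 (0.68, adjusted p = 0.000101) and Rpl6 (0.35, adjusted p = 0.00449), 3.75% of the members against 6.33% of all genes. In the authors' deposited table of P301S/E4/TREM2+ against P301S/E4/TREM2-, Rpl36 alone passed, at -0.88 (adjusted p = 0.00148), against 1.23% of all genes. These nuclei are those of the libraries above, so the tables are not independent of them.

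Genes whose log2 CPM followed the summed ribosomal protein share most closely over the 6 libraries were Ndufab1 (Pearson r of 0.993), Cfl2 (0.988), Zbtb26 (0.979), Twistnb (0.979) and 0610030E20Rik (0.976). They were picked from 5001 genes over 6 points that share depth and composition, so the values describe likeness only.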

How the data were processed

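Per the file headers, the authors deposited UMI counts per gene and nucleus from Cell Ranger 3.0.1, and the submitters' processing notes name the mm10 genome. Whether introns were counted is not given in the sources used here. The authors also deposited tables of log fold changes and adjusted p-values over nuclei, whose making is not given in the sources used here; the log base is not stated either, so the authors' deposited fold changes were read as scores. Per the labels, doublets were gated out at the sort; no doublet caller was run here.

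Counts were summed per library over nuclei with 200 or more genes and 5% or fewer mt- UMIs. edgeR 4.0.16 (limma 3.58.1, R 4.3.3) fitted background and TREM2 additively with TMM factors, after filterByExpr, on all genes; p-values were adjusted by Benjamini-Hochberg over all genes tested and called at 0.05. Class comparisons had library as a block. DESeq2 1.42.0 was an alternative. With 1 library a genotype, p-values rest on the spread between these libraries and not between mice. In edgeR each gene's spread is moderated with that of other genes. Prior against residual degrees of freedom were 8.60 against 2 for the genotype fit and 16.8 against 5 for depth. For Gpnmb they were 21.9 against 1. For Lpl they were infinite against 3, so the spread was the one shared over genes. The 7 single pairs of libraries were not tested: a member was past 1.5-fold with at least 100 UMIs in the pair, with exact 95% intervals that cover counting error only. The scripts were tested on simulated data. Coordinates are from GENCODE vM21 (GRCm38), promoter windows from RefSeq.

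The members, lists and comparisons were chosen with earlier results of these data known. Members named are those called, else the 5 of lowest p, those past the fold in most pairs, and a fixed set of members with known roles. Alternatives were other scalings and filters, thinning, leaving out nuclei or 1 library, and other thresholds for the classes. A few genes that these rules name are not reported here.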

Additional observations from a re-analysis of the deposited data

Results flagged for a closer look

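The median ribosomal protein log2 ratio of TREM2- over TREM2+ was -0.16 in P301S/E4 and 0.10 in E4, with 66 of 80 members below 0 in the first and 57 of 79 above 0 in the second. The same ratio was 0.16 in P301S/EKO, with 70 of 79 members above 0. The backgrounds drew attention because their medians lay on opposite sides of 0. Each ratio compares 1 library with 1 library, and the difference between backgrounds was not tested. Median UMIs per nucleus were 572 and 710 in E4, 807 and 569 in P301S/EKO and 775 and 915 in P301S/E4, TREM2+ first. From 500 to under 750 UMIs the ribosomal protein shares, in that order, were 0.944 and 1.11%, 1.29 and 1.31%, and 1.34 and 1.40%. At 2500 or more UMIs the P301S/E4 shares were 1.79 and 1.05%. Without nuclei holding other cells' markers, TREM2- was the higher in every depth bin of P301S/E4, with 95% intervals overlapping in all but the shallowest. P301S/EKO/TREM2- also held 1827 nuclei under 500 UMIs, at 1.69%, against 0 in P301S/EKO/TREM2+. The part of depth in the difference was not tested.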

How the results depend on the processing

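The tau call of Rpl10a stood in 17 of 17 alternatives, at 0.76 to 0.98 on the log2 scale; Rpl36 stood in 12 and Rps18 in 11 of 17. DESeq2 called 1347 genes and 1 risen member for tau, 11 genes for Lpl, 91 for Gpnmb, and 740 genes with 1 fallen member for depth. With no expression filter, 226 genes were called for TREM2, 7 members rose for tau, 1258 genes with 1 risen and 1 fallen member were called for APOE, and 2208 genes with 1 risen member for depth. Over all deposited nuclei 1 member rose for tau and 1 fell for APOE, and with 500 or more genes per nucleus 1 fell for APOE. With 1% or fewer mt- UMIs APOE had 279 genes, and without nuclei holding an Lpl or Gpnmb UMI 152. Without nuclei holding other cell types' markers APOE had 247 genes, and 8 members rose for tau, whose gene count is not given here. Thinned to 500 UMIs, TREM2 had 35 genes and APOE 1 risen member, Rpl10a. With no composition factor Lpl had 79 genes and depth 1 fallen member. With no library block Lpl had 2 genes and Gpnmb 54. Classes of at least 2 UMIs gave 11 genes for Lpl and 1 fallen member for Gpnmb. With no thinning, Lpl had 171 genes with 5 members fallen, and Gpnmb 869 genes with 1 member risen and 7 fallen. Thinned to 1000 UMIs, Lpl had 1 member risen and Gpnmb 608 genes with 1 risen and 2 fallen. With the depth boundary at 750 UMIs 16 members fell, and at 2000 UMIs 22 rose and 0 fell, with Rpl10 at 0.011 (adjusted p = 0.995). Without nuclei of other cell types' markers, which was chosen after seeing the data, the depth comparison had 504 genes and 46 members fallen, and 40 of the 41 members above 0 over all nuclei turned below it, among them Rpsa (-0.26), Rps14 (-0.35), Rplp2 (-0.31) and Rpl41 (-0.26). A count of members with no share of all genes beside it describes the setting and is not read as a result about the members. The cause of these shifts was not tested.

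Leaving out 1 library gave 11 to 114 genes for TREM2, 1083 to 2788 for tau and 282 to 1300 for APOE. It gave 1 to 14 members risen for tau, 0 to 13 fallen for APOE, 7 to 41 genes for Lpl, and 0 to 9 members risen and 1 to 4 fallen for depth. The share of all genes beside the largest of these member counts is given with each contrast above. An omitted library leaves a genotype pair with 1 sample, assumed to vary like the others. For Gpnmb it could not be fitted. No paired analysis was possible because each genotype had 1 library and the labels give no replicate numbers; the class comparisons kept library as a block. Members of few UMIs, such as Rps27l with 260, were limited by depth.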

Other observations

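Nuclei outside the filters carried more ribosomal protein RNA. The 1324 nuclei over the mitochondrial limit had a ribosomal protein share of 2.38% in E4/TREM2+, 3.87% in E4/TREM2-, 3.90% in P301S/EKO/TREM2+, 5.79% in P301S/EKO/TREM2-, 3.52% in P301S/E4/TREM2+ and 2.25% in P301S/E4/TREM2-. In each library that was above the share of the nuclei that passed. The 307 nuclei with under 200 genes, all in P301S/EKO/TREM2-, had 3.73%.

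Ribosomal protein shares were uneven among the deepest nuclei. In nuclei of 2500 or more UMIs the share was 1.79% in E4/TREM2+, 1.45% in E4/TREM2-, 1.70% in P301S/EKO/TREM2+, 4.00% in P301S/EKO/TREM2- (22 nuclei), 1.79% in P301S/E4/TREM2+ and 1.05% in P301S/E4/TREM2-. Most of these nuclei held 2 or more UMIs of other cells' markers. In the same order those were 64 of 67, 75 of 79, 95 of 123, 21 of 22, 108 of 123 and 320 of 358. Without them the shares were 0.799, 1.02, 0.932, 0.645, 1.05 and 1.06%, over 3, 4, 28, 1, 15 and 38 nuclei. The 10 deepest nuclei of P301S/EKO/TREM2- included one at 7.35%, and the highest of the 10 in P301S/E4/TREM2- was 1.29%.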
